A study of Mus musculus with 2 samples.

Results

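Mir140 and Mir455 are the 2 miRNA genes described here, of 1973 listed in the count tables. They were found by Ensembl gene identifier, with the version removed, and both are hosted by protein-coding genes: Mir140 by Wwp2, a ubiquitin ligase gene, and Mir455 by Col27a1, a fibrillar collagen gene expressed in cartilage. Small RNA was sequenced from limb of B6NCrl mouse embryos at day 11.5 of development, in 2 libraries of 1 group. The labels number them as biological replicates: replicate 1 was pooled from 109 embryos and replicate 2 from 88, both of mixed sex and healthy. The labels give no transgene, deletion or treatment for either library, and the same donor identifier for both, without saying what it stands for. The p-values below compare these 2 pools only, against counting error or, where stated, a wider spread. They do not measure the spread between pools. The series holds no second age or tissue, and the levels below are a description of limb at this stage.

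MicroRNAs are short RNAs cut by Drosha and Dicer from the arms of a hairpin precursor. Loaded into an Argonaute protein, they repress messenger RNAs that pair with the seed at their 5′ end. Limb mesenchyme at this stage begins to gather into the condensations that precede cartilage. Mir140 is known as a cartilage miRNA activated by the chondrogenic factor SOX9, and mice without it have a short skeleton and cartilage that breaks down early. Mir455 is also known from cartilage, where mice without its products develop joint cartilage damage.

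The mature sequences that these hairpins release are printed because the seed sets which messages each arm can bind. They are RefSeq entries on GRCm38.p6, written 5′ to 3′, with the seed (bases 2 to 8) in capitals.
mmu-miR-140-3p: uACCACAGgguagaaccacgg
mmu-miR-455-5p: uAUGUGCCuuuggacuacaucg
mmu-miR-455-3p: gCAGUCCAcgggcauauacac
The RefSeq table held these 3 arms, and mmu-miR-140-5p is named only. The 3 seeds differ from each other. A seed of the table belonged to a single gene in 84.5% of cases. The seed of miR-140-3p was shared with the mature product of Mir497b, and that of miR-455-5p with miR-5129-3p of Mir5129. Mir497b had 2 sense counts in each library and Mir5129 had 0, so neither was detected. Both were named after their values were seen. The seed of miR-455-3p was found in no other gene of the table.

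None of these 3 arms had an identical match in another hairpin, and the arm miR-140-5p was not searched. Neither member's hairpin shared a stretch of 20 nt with any other annotated mouse miRNA hairpin, while 923 of the listed genes did. The closest match of miR-140-3p in the other 2201 hairpins had 6 mismatches, at Mir3107. The closest of miR-455-3p also had 6, at Mir574, and that of miR-455-5p had 7. No other hairpin offered the reads of either gene an identical stretch of that length. The counts are per hairpin, so the share of the 5′ and the 3′ arm in each value is not known.

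Both hairpins lie on the plus strand of mm10, in the same direction as their hosts. Mir140 (ENSMUSG00000065439.1) is on chromosome 8 from 107551244 to 107551313, a hairpin of 70 bases with 52.9% GC. It sits 114.9 kb from the start of Wwp2, at 94.0% of the host's length of 122.2 kb. In Wwp2-201, a coding transcript of 24 exons, it falls in intron 16, which is 2141 bases long, 1108 bases after the previous exon and 963 before the next. Of the 11 annotated Wwp2 transcripts, 3 hold the hairpin in an intron. In 1, the retained-intron transcript Wwp2-206, it lies in the single exon, and 7 do not cover it. The shorter coding transcript Wwp2-205 begins 6.23 kb before the hairpin, far closer than the 114.9 kb of Wwp2-201.

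Mir455 (ENSMUSG00000070102.1) is on chromosome 4 from 63256851 to 63256932, a hairpin of 82 bases with 54.9% GC. It lies 42.8 kb from the start of Col27a1, at 35.4% of a host of 121.0 kb. In Col27a1-201, which has 61 exons, it falls in intron 10, of 2318 bases, and ends 127 bases before the next exon. Of 7 annotated transcripts 4 cover it, all with the hairpin in an intron. Neither gene is in a miRNA cluster. The nearest listed miRNA gene to Mir140 is Gm23646, 0.290 Mb away with no sense count in either library, and the nearest to Mir455 is Mir3095, 4.82 Mb away with 63 and 43 counts. These neighbours were named from their position.

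**Figure D1:**
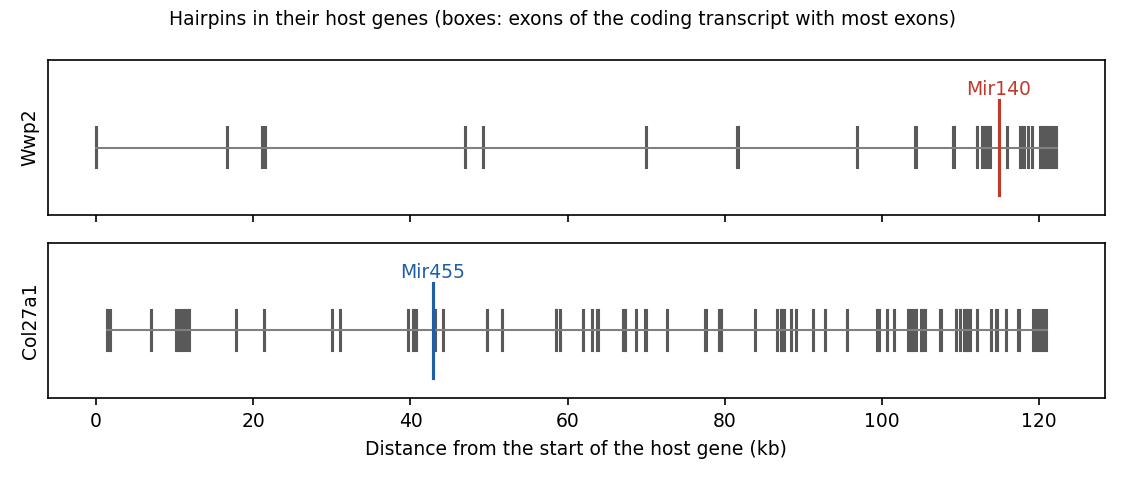
Position of each hairpin (coloured line) in its host gene, in kb from the start of the host; boxes are the exons of the coding transcript with most exons (24 for Wwp2, 61 for Col27a1), with the thinnest widened to 0.15 kb to be visible. Mir140 lies near the end of Wwp2, at 94.0% of its length, and Mir455 in the first part of Col27a1, at 35.4%.

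Mir140 was among the miRNA genes with the most counts in limb. It had 43141 sense counts in replicate 1, of 2953085 in all, and 44688 in replicate 2, of 3459176. As CPM (counts per 1000000 sense counts of miRNA genes) these are 14609 and 12919, with Wilson 95% intervals of 14473 to 14746 and of 12800 to 13038. The 2 intervals do not overlap, and replicate 1 is the higher library. Intervals here cover counting error only, since PCR copies are not independent molecules. Mir140 held 1.46% and 1.29% of the sense counts and ranked 16th and 19th of all listed genes. Its level was 56.3 and 47.5 times that of the median detected gene, detected meaning 10 CPM or more in both libraries. The mean level was 13764 ± 1195 CPM (SD, n = 2), at place 17 of 295 detected genes.

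Mir455 was detected at a lower level than Mir140 but above most detected genes. It had 3916 sense counts in replicate 1 and 4610 in replicate 2, or 1326 CPM and 1333 CPM. The Wilson intervals, 1285 to 1368 CPM and 1295 to 1372 CPM, overlap almost fully, and neither library stands higher. It ranked 89th and 87th, and held 0.133% of the sense counts in each library. That is 5.11 and 4.90 times the median detected gene. The mean was 1329 ± 4.68 CPM (SD, n = 2), at place 88 of 295. That SD is below the counting error, so the intervals are the better guide to its precision.

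Neither hairpin had a count on the opposite strand in either library. A count of 0 there allows up to 3 counts, or 1.02 CPM in replicate 1 and 0.867 CPM in replicate 2. Of all reads in the files, unmapped and multimapping reads included, Mir140 took 0.648% and 0.602% and Mir455 0.0588% and 0.0621%. Among 854 listed genes that lie within a protein-coding gene on its strand, 132 were detected. Mir140 took place 10 of these by mean level and Mir455 place 41.

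**Figure D2:**
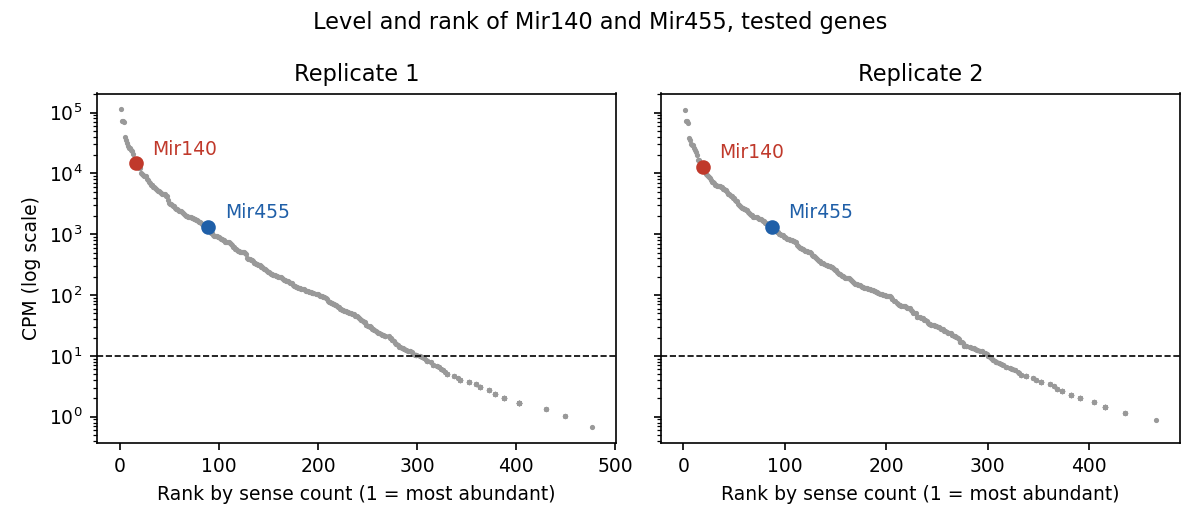
CPM (log scale) against rank for each tested gene with a count, in each library; grey points are genes, the dashed line is the detection level of 10 CPM. Mir140 stands at rank 16 and 19 on the steep part of the curve and Mir455 at rank 89 and 87.

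The genes nearest in level place each member in the order. Just above Mir140 came Mir93, which is hosted by the replication gene Mcm7, at 13578 CPM (replicate 1) and 14024 CPM (replicate 2). Just below came Mir18, of the Mir17-92 cluster, with 13225 and 13402 CPM, and then Mir106b with 12339 and 12962 CPM. The ranges of these 3 overlap that of Mir140, so their order is not resolved by the spread between the libraries. Mir26b (17041 and 16443 CPM) and Mir10a (16087 and 16836 CPM) lay above Mir140 without overlap. Mirlet7g (12327 and 11045 CPM) lay below it without overlap. In log2 units, the mean levels of these 6 genes were from 0.28 above to 0.24 below that of Mir140.

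Around Mir455 the order was tighter. Mirlet7d, with 1492 and 1196 CPM in replicates 1 and 2, and Mir22, with 1346 and 1283 CPM, overlapped its range. The order of Mirlet7d and Mir22 beside Mir455 is therefore not resolved by the spread between the libraries. Mir674 (1380 and 1414 CPM) and Mir542 (1410 and 1346 CPM) lay above the range of Mir455 in both libraries. Their Wilson intervals, spanned over both libraries, overlap those of Mir455, and the differences were not tested. Mir154 (1132 and 1194 CPM) and Mir1193 (1055 and 1185 CPM) lay below Mir455 without overlap, with their intervals too. Their mean levels ran from 0.07 log2 units above Mir455 to 0.25 below it. Likeness here is nearness in mean CPM over 2 libraries, and does not bear on function or control.

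Mir140 exceeded Mir455 in both libraries. The ratio of their sense counts was 11.0 in replicate 1 and 9.69 in replicate 2. On the log2 scale that is 3.46 and 3.28, or 3.37 ± 0.13 (SD, n = 2). The counting error of the log2 ratio was 0.024 and 0.022, well under the SD. Mir140 thus supplied 91.7% and 90.6% of the counts of both genes together. The counts are per hairpin, with no length scaling. Per hairpin base the log2 ratio would be 3.60. With 2 libraries the smallest p of an exact sign-flip test is 0.5, and the ratio was left untested. A bias of ligation or amplification tied to sequence would not show in the SD.

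Between the libraries Mir140 differed by more than counting error, and Mir455 did not pass the test. Mir140 was 1.14-fold lower in replicate 2, a log2 ratio of -0.19 with an exact 95% interval of -0.21 to -0.17 (adjusted p = 5.86e-83, exact binomial test on TMM-scaled sizes, Benjamini-Hochberg). Mir455 had a log2 ratio of -0.01, with an interval of -0.07 to 0.06 (adjusted p = 0.962 by the same exact test). A difference of the size seen at Mir140 lies outside the interval of Mir455. So 1 of the 2 members was called. Over all 422 tested genes 21.3% were called, and 11.8% were called lower in replicate 2. The test compares these 2 libraries, not conditions.

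The change in the ratio itself needs no scaling between libraries. By Fisher's exact test on the 4 counts, the odds ratio of Mir140 to Mir455 in replicate 2 against replicate 1 was 0.880, with a 95% interval of 0.841 to 0.920 (two-sided p = 1.93e-08). These tests take counting error alone as the spread. Wider forms multiplied the variance, the square of the spread, by a factor (called a spread factor below). With a factor of 2.64, taken from the median gene, p from a normal deviate was 5.37e-04 for the ratio. The adjusted p of Mir140 in that form was 1.64e-31. With a factor of 18.95, taken from the mean over genes, the change in the ratio did not pass, with p = 0.197 from a normal deviate in place of the exact test. Mir140 did (adjusted p = 5.02e-04), while Mir455 passed neither form (adjusted p = 0.983 and 1.00). These forms called 11.4% and 2.84% of tested genes. Each factor is a single value over all tested genes, most of them of lower depth than Mir140. Near the level of Mir140, 18 of 20 other genes were called by the exact test. Neither factor therefore measures the spread between libraries at its depth.

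Among genes of its own depth Mir140 had one of the larger shifts. Of 20 other genes within 2-fold of its level, 18 were called and 12 of them were lower in replicate 2. The median size of their log2 ratios was 0.05, and 1 of the 20, Mirlet7i at -0.36, had a larger one than Mir140. Mirlet7i was named after its values were seen. Among 201 tested genes of 100 CPM or more, 14 had a lower log2 ratio than Mir140 and 186 a higher one, an order that does not depend on the scaling. Mir455 lay in the middle of the same order, with 88 lower and 112 higher. Of 55 other genes within 2-fold of its level, 24 were called, and 52 had a larger difference than Mir455 in either direction.

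**Figure D3:**
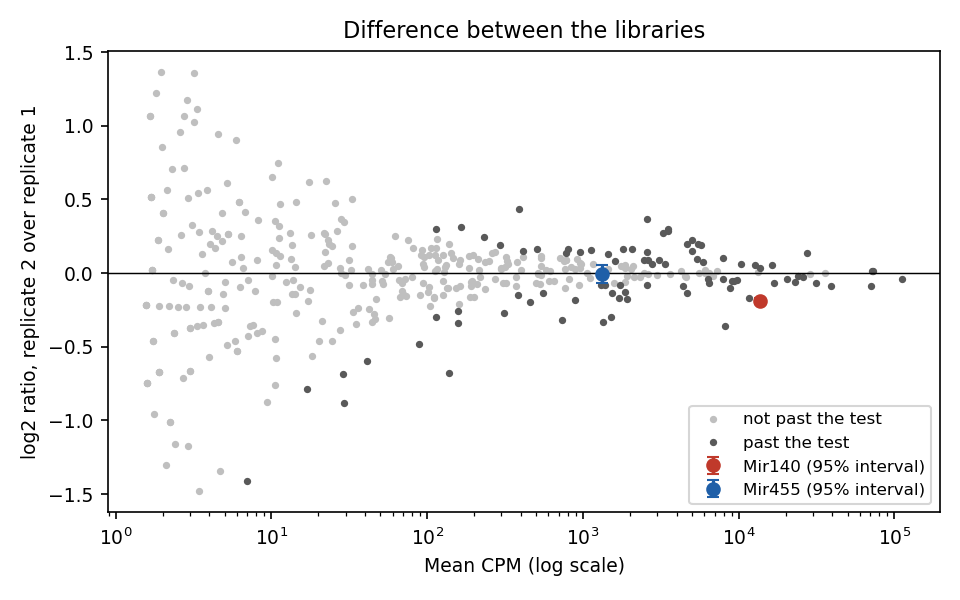
Log2 ratio of replicate 2 over replicate 1 (TMM-scaled, prior count 0.5) against mean CPM (log scale) for 416 of the 422 tested genes; 6 genes lie outside the axis limit of 1.5. Dark points passed the exact binomial test, and bars on the members are exact 95% intervals; Mir140 lies at -0.19 and Mir455 at -0.01.

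Markers of other cell types also differed between the libraries. Of 10 epithelial miRNA genes, 7 were called higher in replicate 2 and 0 lower, against 9.48% of all tested genes called higher. That share is not matched for depth, since calls were commoner among deeper genes and each of the 10 had a mean of 163 CPM or more. Within 2-fold of the level of Mir455, 24 of 55 other genes were called, 12 of them lower. With the median spread factor 5 of the 10 epithelial genes were called, and with the mean one 2, against 11.4% and 2.84% of all tested genes. All 10 were detected, and their summed level was 1.81% of sense counts in replicate 1 and 2.12% in replicate 2. Their part in the lower Mir140 count was not tested. In these whole-tissue pools, fewer cells of a type and less RNA per cell cannot be told apart. The most abundant epithelial gene, Mir205, had 5122 and 5922 CPM in replicates 1 and 2.

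Marker lists were counted to describe the tissue, which is known as limb from the labels. All 6 listed miRNA genes of the Hox clusters, which pattern the limb, were detected, and they held 13.0% of sense counts in replicate 1 and 12.7% in replicate 2. Of the 6, 1 was called higher and 2 lower in replicate 2, against 9.48% and 11.8% of all tested genes. Mir196b, the most abundant, was among the lower ones at a log2 ratio of -0.09. With the median spread factor 3 of the 6 passed and with the mean one 1, against 11.4% and 2.84% of all tested genes. Of the 6, 2 share a stretch of 20 nt with another hairpin, so their counts can be too low. Without them, of 4 tested, 1 was called higher and 1 lower, an alternative added after seeing the data. The endothelial Mir126a held 2.43% and 2.41% and was called lower at -0.02 (adjusted p = 0.0332, exact binomial test), but with neither wider spread. The 5 listed blood cell miRNAs, led by Mir155, held 0.103% and 0.121%, with 1 of 5 called higher, against 9.48% of all tested genes. The 8 listed muscle miRNAs held 0.0601% and 0.0590%, led by Mir206, with 3 of the 8 at 0. Of the 5 tested, 1 was called lower, against 11.8% of all tested genes. The 6 neural miRNAs held 0.0205% and 0.0221%, nearly all Mir137, with 4 of the 6 at 0 and neither of the 2 tested called. The liver miRNA Mir122 had 21.7 and 14.7 CPM and was not called. The muscle and neural hairpins at 0 each share a stretch of 20 nt with another hairpin, so a 0 there does not limit the mature miRNA.

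Other miRNAs tied to cartilage were counted from a list of 29 listed genes that leaves out both members. Together they held 21.5% of sense counts in replicate 1 and 21.0% in replicate 2, led by Mir335. Ordered by mean level with the members included, Mir140 took place 4 and Mir455 place 12 of 31. In the list, 23 genes were detected, 25 were tested, and none was without a count. Of the 25 tested, 1 was called higher in replicate 2 and 7 lower, against 9.48% and 11.8% of all tested genes. Those shares are not matched for depth. The median log2 ratio of the list was -0.04, against 0.00 over all tested genes. Mir140 had -0.19 and Mir455 had -0.01. In the list, 13 genes share a stretch of 20 nt with another hairpin, so their counts can be too low. Without them, of 16 tested, 1 was called higher and 3 lower, an alternative added after seeing the data. Of the 8 calls, 6 passed with the median spread factor and 1, Mir214, with the mean one. Over all tested genes these factors left 11.4% and 2.84% called.

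Of these genes 3 stood above Mir140. Mir335, in an intron of the imprinted gene Mest, had 112862 and 110861 CPM in replicates 1 and 2, 8.13 times the mean of Mir140. Mir214, processed from the transcript Dnm3os of limb mesenchyme, had 40112 and 38032 CPM, 2.84 times Mir140. Mir23b had 23251 and 22470 CPM, 1.66 times Mir140, and shares sequence with another hairpin. All 3 were above Mir140 in both libraries without overlap, and all 3 were called lower in replicate 2, with log2 ratios of -0.04, -0.09 and -0.06. Each is nearer 0 than the -0.19 of Mir140; those differences were not tested.

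Below Mir140, Mir18 overlapped its range, and Mir92-1, of the same Mir17-92 transcript, had 6531 and 6282 CPM in replicates 1 and 2 (log2 ratio -0.07, called lower). Mir143, which is best known from smooth muscle, was the list's one gene called higher, with 5330 and 6140 CPM and a log2 ratio of 0.19. Mir140 had -0.19. Mir199b, of a family expressed in mesenchyme, had 1662 and 1365 CPM and overlapped no value of Mir140. It was 1.14 times the mean of Mir455 and was called lower at -0.30. Its paralog Mir199a-2 had 341 and 286 CPM, less than Mir455 in both libraries, and was called lower at -0.27. Mir92-1, Mir199b and Mir199a-2 each share a stretch of 20 nt with another hairpin, so their counts can be too low. Their place beside the members holds for these counts, not for the mature miRNAs. Mir22, next to Mir455 in level, was called lower at -0.08 (adjusted p = 0.0442, exact binomial test), while Mir455 was not called; the difference between these 2 genes was not tested.

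**Figure D4:**
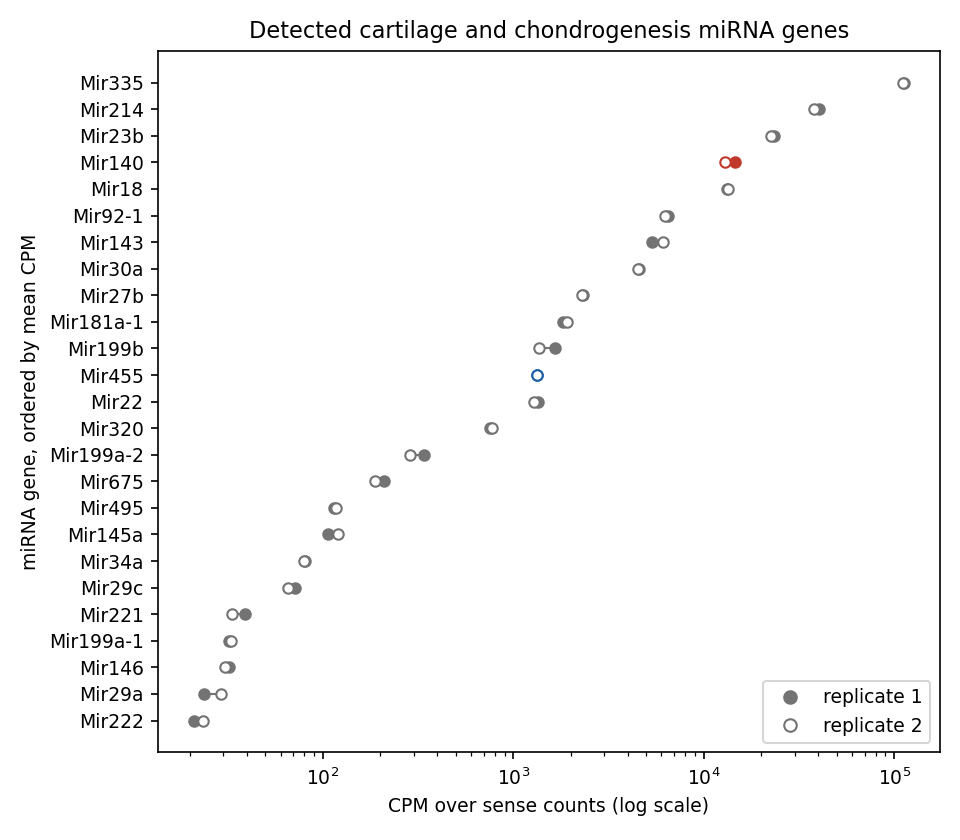
CPM (log scale) in replicate 1 (filled) and replicate 2 (open) for the 23 detected genes of the cartilage list and both members, 25 genes ordered by mean CPM. Mir140 (red) is at place 4 from the top with replicate 1 to the right, and the 2 points of Mir455 (blue) coincide at a mean of 1329 CPM.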

How the data were processed

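Small RNA of limb was measured in 2 libraries. Per the notes deposited with each sample, the authors counted reads on mm10 with GENCODE M4; which aligner and counter were used is not given in the sources used here. The deposited unit is the raw count per miRNA gene, in 3 columns: both strands, then each strand. The middle count column, which holds nearly all counts, was taken as sense from its values. Reads of no gene (4 lines at the top of each file) stayed out of library sizes: unmapped reads were 23.6% and 23.5% of reads, multimapping 24.7% and 23.4%, and those without a feature 6.45% and 5.39%. Multimapping reads are in no gene's count.

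GENCODE M21, which uses that assembly too, gave symbols, loci and hairpins (1894 of 1973 genes matched), and RefSeq on GRCm38.p6 the mature sequences. Genes with 10 or more sense counts over both libraries were tested by the exact binomial test against TMM library sizes (edgeR 4.0.16, R 4.3.3), adjusted by Benjamini-Hochberg at 0.05. The quasi-likelihood test was not used because there is 1 group. The binomial test was checked on simulated data. Alternatives changed the scaling (total counts, DESeq2 1.42.0), filter, prior count, strand, denominator and spread, and left out each library. Python 3.11.15, numpy 2.4.6, scipy 1.17.1, pandas 2.3.3 and matplotlib 3.10.9 did the rest.

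The members and lists were chosen with earlier results of these data known. Genes named are the members, the 3 genes above and below each by mean CPM, and detected genes that share a seed with a member's arm. There were none of the last kind for the 3 RefSeq arms, and the seed of miR-140-5p was not searched. The top 5 and all called genes of the cartilage list, and the most abundant gene of each other list, are named too. Others are marked.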

Additional observations from a re-analysis of the deposited data

How the results depend on the processing

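Mir140 stayed lower in replicate 2 and past the threshold under all 8 alternatives that could be run, with log2 ratios of -0.19 to -0.18 and adjusted p of at most 5.02e-04. Not all of the 8 could change the outcome. The prior count enters the log2 ratio and not the test, and the filters change only the adjustment of p. The wider spreads among these alternatives were not fitted to genes of the depth of Mir140. Mir455 passed under none of the 8 alternatives, and its log2 ratio changed sign with total counts as the scaling (0.0072) and with both strands summed (0.00090), from -0.0056. The change in the ratio between the genes, -0.18 on the log2 scale, passed with the median spread factor but not with the mean one, whose log2 value is the same by construction (p = 0.197 from a normal deviate in place of Fisher's exact test). Genes called in all were 90, and 48 and 12 with the wider spreads, since those tests allow more variation; the other alternatives gave 83 to 94. With total counts 45 of 87 calls were higher in replicate 2, against 40 of 90. Calls in the cartilage list numbered 8, and 4 without hairpins that share sequence or 1 with the mean factor. Levels follow their denominator: Mir140 was 6249 CPM of all reads and 28369 CPM without the 10 most abundant genes, and Mir455 was 605 and 2740 CPM, or 1300 CPM with both strands summed. Among hairpins that share no stretch with another, Mir455 ranked 72 and Mir140 16. That order leaves out the genes that share sequence and does not restore their multimapping reads. Per hairpin base, added after seeing the data, the log2 ratio of the genes was 3.60. By single library, Mir140 ranged from 12919 to 14609 CPM and rank 16 to 19, Mir455 from 1326 to 1333 CPM and rank 87 to 89, and the log2 ratio from 3.28 to 3.46. Leaving out a library ends the comparison between them. No paired analysis was possible because there is 1 group.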
